A study of Mus musculus with 9 samples.

Results

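The 30 genes described here encode the enzymes that make cholesterol and fatty acids and the proteins that regulate them. They were found by symbol in a human gene table of 58735 genes: 6 enzymes of the mevalonate pathway, 11 enzymes that lead from farnesyl pyrophosphate to cholesterol, 5 regulators and carriers of sterols, and 8 enzymes of fatty acid synthesis. All 30 passed the filter on low counts, among 15492 genes tested. RNA was sequenced from Caki cells, a line from a human clear cell carcinoma of the kidney grown in DMEM/F12 with serum, in 9 libraries. The YAP1-S127A group carries a retrovirus-based vector for a YAP1 in which a serine is replaced by alanine, described by the labels as constitutively active; the YAP1 group carries the wild-type sequence in such a vector, and the MX group the empty vector MXIV, with 3 libraries each. All 3 groups were selected with G418 and so share transfection, vector and drug. The labels name neither a single clone nor separate cultures, so the spread behind each p-value is that among the sequenced libraries and may be technical. The comparisons ask how wild-type YAP1 and YAP1-S127A changed the transcriptome relative to the empty vector, and how the constructs differed from each other.

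Cholesterol and fatty acids are both built from acetyl-CoA. Cells sense sterols in the endoplasmic reticulum, where the INSIG proteins hold back the SREBP transcription factors when sterol is plentiful; released SREBP-2, encoded by SREBF2, mainly switches on sterol genes, and SREBP-1, encoded by SREBF1, mainly fatty acid genes. YAP1 is a transcriptional co-activator of the Hippo pathway, and phosphorylation of the serine replaced in S127A retains it in the cytoplasm. Clear cell renal carcinoma is known for cells filled with lipid and cholesterol esters.

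Total counts ran from 15789722 to 24811150 per library. YAP1 averaged 687 ± 54.9 CPM in YAP1-S127A, 1218 ± 268 CPM in YAP1 and 99.8 ± 8.63 CPM in MX (SD, n = 3 each; CPM is the read count scaled to library size after TMM), so the introduced gene was highest in the group labelled YAP1. Of 11 kidney tubule markers, 9 exceeded 1 CPM in every group, with PAX2 and LRP2 near 0. Summed adipocyte markers stayed between 0.222 and 1.29 CPM, endothelial markers at or under 1.89 CPM and leukocyte markers at or under 0.381 CPM. The 8 fibroblast markers summed to 2144 to 3953 CPM in YAP1-S127A, 1335 to 1687 CPM in YAP1 and 773 to 1307 CPM in MX, mostly from COL1A1, while THY1, POSTN and DCN were near 0. In YAP1-S127A, YAP1 and MX, COL1A2 averaged 80.4, 7.49 and 0.740 CPM, LUM 9.52, 2.53 and 0.870 CPM and PDGFRB 46.7, 26.0 and 30.2 CPM. COL1A1 (edgeR adjusted p = 0.000103), COL1A2 (0.000859), LUM (8.19e-08) and PDGFRB (0.00580) rose in YAP1-S127A against MX. The mitochondrial genome held 29.6, 7.40 and 21.2% of counts in the YAP1-S127A libraries, 3.50, 8.60 and 11.4% in YAP1 and 5.89, 6.60 and 1.90% in MX. In these bulk samples fewer cells of a type and less RNA per cell cannot be told apart.

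Divided by gene length, the levels of the 30 genes spanned a wide range, from ACLY, ATP citrate lyase, which makes cytosolic acetyl-CoA, to CYP51A1, lanosterol demethylase. ACLY stood at 81.7 ± 6.53 CPM per kb in YAP1-S127A, 113 ± 12.4 in YAP1 and 107 ± 8.72 in MX, the highest of the 30 in each group. CYP51A1 stood at 0.880 ± 0.241, 1.08 ± 0.321 and 0.675 ± 0.104 CPM per kb in the same groups, the lowest in each, from 561 counts over all 9 libraries. Next after ACLY in MX came FASN at 35.3 ± 3.61, PMVK at 35.1 ± 4.94, SCD at 27.6 ± 3.91 and DHCR7 at 25.3 ± 5.34 CPM per kb. FASN and PMVK differed in MX by less than the SD of either, as did SCD and DHCR7. Above CYP51A1, the low end in MX held LSS at 4.38 ± 0.358, STARD4 at 4.30 ± 0.736, MVK at 3.90 ± 0.735 and HSD17B7 at 3.48 ± 0.113 CPM per kb, neighbours that lay within their spread of each other. PMVK ranked 3 per length in MX and 15 by CPM without length; its deposited length is 1280 bases.

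**Figure D1:**
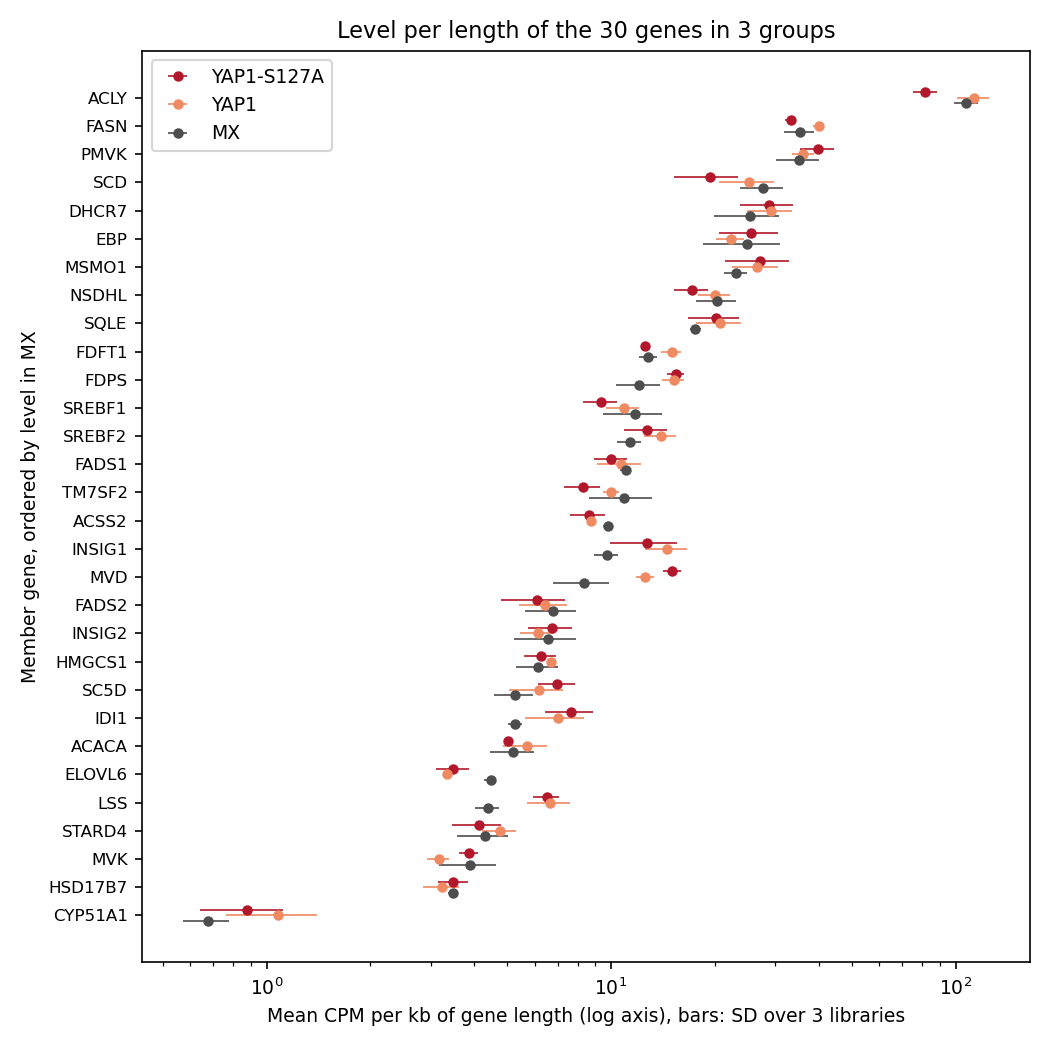
Mean level of each of the 30 genes in CPM per kb of deposited gene length (log axis), with the SD over 3 libraries as bars, for YAP1-S127A, YAP1 and MX. Genes run down the page by their level in MX, from ACLY to CYP51A1; MVD, LSS and IDI1 lie to the right of MX in both construct groups and ELOVL6 to the left.

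Few of the 30 genes changed. The called enzymes of the cholesterol branch (MVD, LSS and IDI1) and the regulator INSIG1 were higher than in MX, and the called fatty acid enzymes (ACLY, SCD and ELOVL6) lower, but no test compared the pathways. Under total-count scaling of YAP1-S127A against MX the cholesterol enzymes TM7SF2 (edgeR adjusted p = 0.00168) and NSDHL (0.0139) were called lower, and LSS (0.151) and IDI1 (0.234) were not called. In YAP1-S127A against MX, MVD, LSS and IDI1 rose and SCD, ACLY and ELOVL6 fell, at a p under 0.05 from edgeR's quasi-likelihood test, adjusted by Benjamini-Hochberg over the whole set of tested genes. That is 10.0% of the 30 in each direction, beside 9.53% of all tested genes called higher and 8.84% called lower, shares near the background. In YAP1 against MX, LSS, MVD and INSIG1 rose and ELOVL6 fell, which is 10.0% and 3.33% of the 30, beside 3.23% of all tested genes called higher and 3.58% called lower. In YAP1-S127A against YAP1, edgeR called 0 of the 30 in either direction, beside 1.13% of all tested genes called higher and 0.839% called lower; 4 had an unadjusted p under 0.05, DESeq2 called 1, ACLY, as lower, and limma-voom called 0. Unadjusted p was under 0.05 for 11 genes in YAP1-S127A against MX and for 9 in YAP1 against MX. The share of all tested genes at that cut was not counted, so nothing about the 30 is read from the unadjusted counts. Both comparisons with MX use the same MX libraries, so a shared deviation of MX enters both.

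The median log2 fold change of the 30 was 0.01 in YAP1-S127A against MX, with 16 of 30 above 0, 0.12 in YAP1 against MX, with 18 above 0, and -0.06 in YAP1-S127A against YAP1, with 11 above 0. Over all tested genes the median was within 0.01 of 0 in each comparison. Scaling to total counts alone, without TMM, moved the median of all genes to -0.28 in YAP1-S127A against MX, and the calls among the 30 to 1 higher and 9 lower. It called 4447 of the tested genes in either direction, where TMM called 2845. With the mitochondrial share as a covariate, MVD alone of the 6 genes stayed called in that comparison; the values with it are given below where it ended a call, also for the further lipid genes. The part of the fibroblast markers, also highest in YAP1-S127A, was not tested. SE of the log2 fold changes lay between 0.108 and 0.277, CYP51A1 having the largest.

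**Figure D2:**
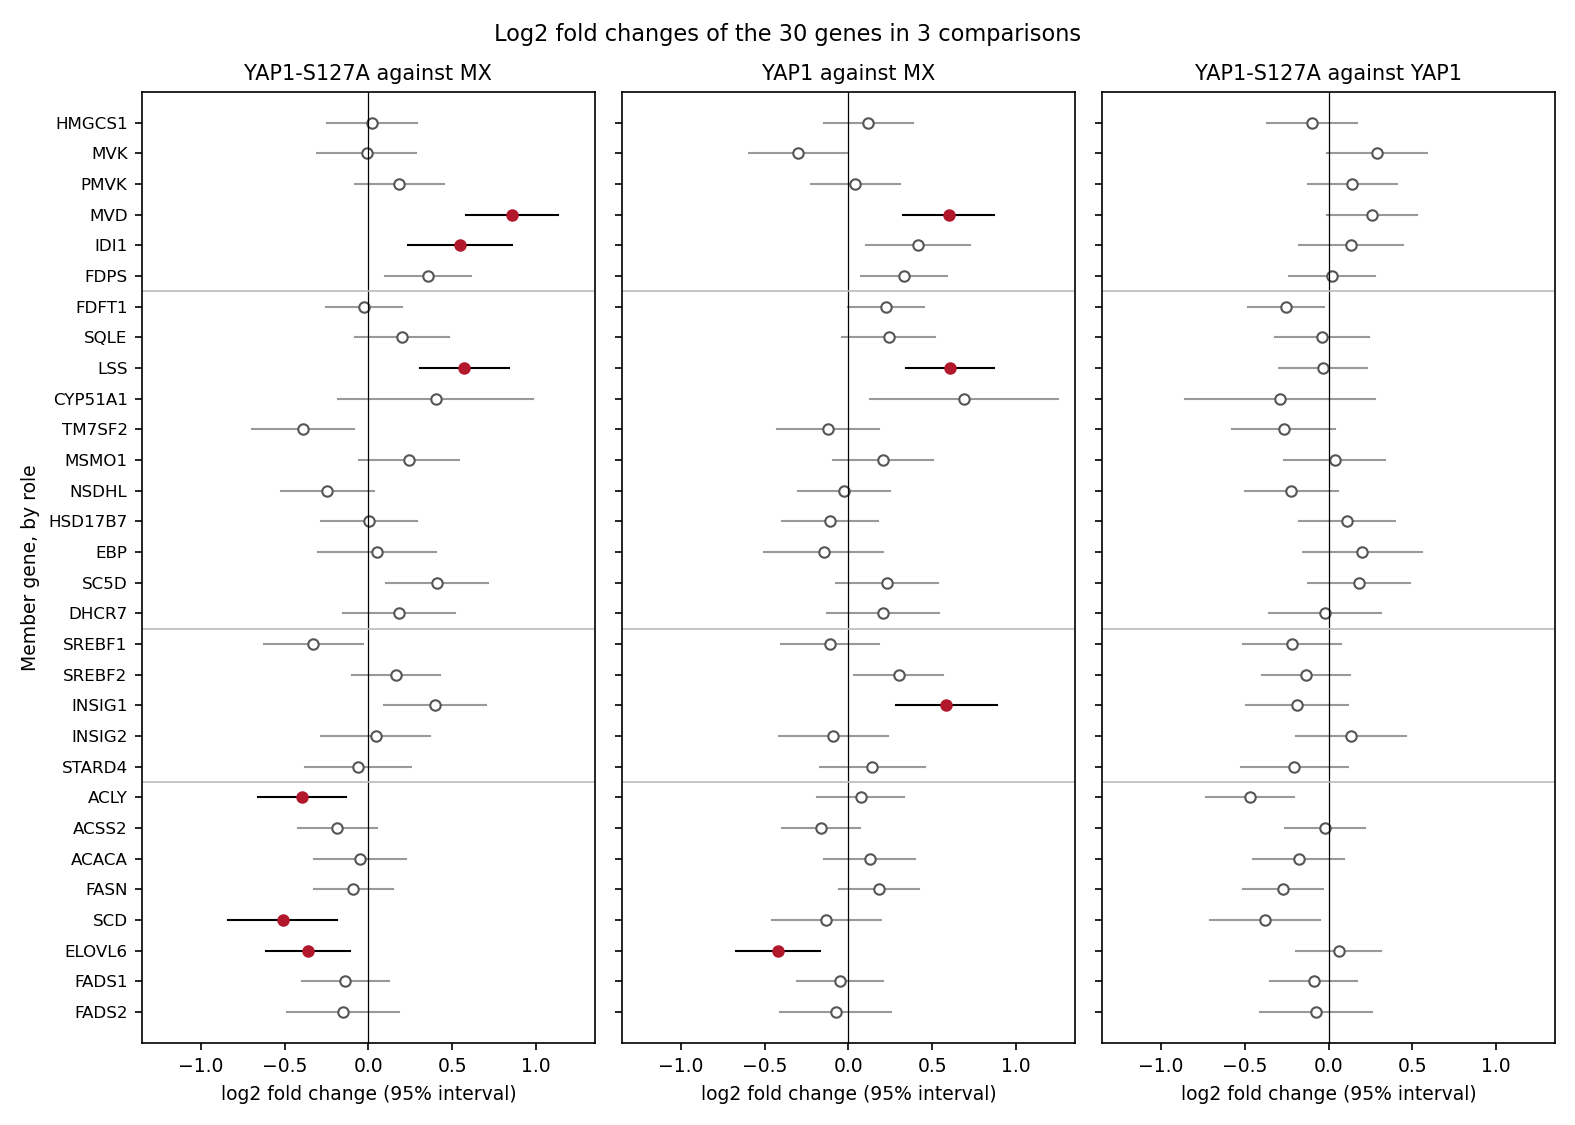
Log2 fold change of each of the 30 genes in YAP1-S127A against MX, YAP1 against MX and YAP1-S127A against YAP1, with 95% intervals; filled points passed an adjusted p under 0.05 and open points did not. Genes are grouped by role, from the mevalonate pathway at the top to fatty acid synthesis at the bottom; filled points are MVD, IDI1, LSS, ACLY, SCD and ELOVL6 on the left, MVD, LSS, INSIG1 and ELOVL6 in the middle and none on the right.

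The mevalonate pathway turns acetyl-CoA units into farnesyl pyrophosphate, the precursor of sterols and of prenyl groups. Of its 6 enzymes, MVD and IDI1 rose in YAP1-S127A against MX and MVD in YAP1 against MX; the others did not pass the test. MVD, mevalonate diphosphate decarboxylase (chromosome 16, positions 88651935 to 88663161, minus strand, in the coordinates of the deposited table, whose build is not given), makes isopentenyl pyrophosphate. MVD had 66.6, 74.7 and 71.6 CPM in the YAP1-S127A libraries, 60.4, 55.4 and 62.1 CPM in the YAP1 libraries and 31.0, 42.3 and 44.5 CPM in the MX libraries. The 3 groups did not overlap, and every YAP1-S127A library lay above every YAP1 library, which lay above every MX library. MVD was 1.81-fold higher in YAP1-S127A than in MX (log2 fold change 0.86 ± 0.13 SE, edgeR adjusted p = 0.000106) and 1.51-fold higher in YAP1 than in MX (log2 fold change 0.60 ± 0.13 SE, edgeR adjusted p = 0.00675). Between the constructs the difference did not pass the test (log2 fold change 0.26 ± 0.13 SE, edgeR adjusted p = 0.431). MVD was called against MX in both construct groups under all 20 alternatives, with an adjusted p of at most 0.00321 for YAP1-S127A and 0.0435 for YAP1.

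IDI1, isopentenyl diphosphate isomerase (chromosome 10, positions 1039152 to 1049170, minus strand), supplies the starter unit for prenyl chains. IDI1 stood at 34.8, 27.4 and 37.7 CPM in the YAP1-S127A libraries, 24.0, 35.5 and 31.8 CPM in the YAP1 libraries and 21.8, 22.8 and 23.9 CPM in the MX libraries. Each YAP1-S127A and YAP1 library was above each MX library, with YAP1 replicate 1 almost level with the highest MX library. It rose in YAP1-S127A against MX (log2 fold change 0.55 ± 0.15 SE, edgeR adjusted p = 0.0144), and in YAP1 against MX it had 0.41 ± 0.15 SE with an edgeR adjusted p of 0.110. The IDI1 call in YAP1-S127A was lost without YAP1-S127A replicate 1 (edgeR adjusted p = 0.0521) or replicate 3 (edgeR adjusted p = 0.105), and with the mitochondrial share as a covariate its log2 fold change was 0.24 (edgeR adjusted p = 0.537). Without YAP1 replicate 1, IDI1 passed in YAP1 against MX (edgeR adjusted p = 0.0348).

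FDPS, farnesyl diphosphate synthase, missed the threshold narrowly in YAP1-S127A. FDPS measured 53.8, 59.7 and 58.6 CPM in the YAP1-S127A libraries, 51.8, 58.3 and 59.4 CPM in the YAP1 libraries and 38.5, 44.7 and 51.6 CPM in the MX libraries. All construct libraries were above all MX libraries for this gene, YAP1 replicate 1 by the smallest margin. Its log2 fold change was 0.35 ± 0.12 SE with an edgeR adjusted p of 0.0509 in YAP1-S127A against MX and 0.33 ± 0.12 SE with an edgeR adjusted p of 0.119 in YAP1 against MX; in YAP1-S127A it passed without MX replicate 3 (edgeR adjusted p = 0.0274). DESeq2 (adjusted p = 0.0403) and limma-voom (0.0492) also called it higher in YAP1-S127A, as did edgeR with the stricter filter (0.0487) and with chromosome-wide shifts removed (0.0333). In all, FDPS was called in 6 of the 20 alternatives. Over the 20 its log2 fold change ran from 0.09 to 0.46, and its edgeR adjusted p reached 0.715. MVK, mevalonate kinase, was the one enzyme of the pathway with a negative value in YAP1 against MX. MVK gave 23.9, 26.8 and 24.3 CPM in the YAP1-S127A libraries, 18.7, 21.5 and 21.2 CPM in the YAP1 libraries and 19.8, 27.3 and 28.6 CPM in the MX libraries. The YAP1 libraries lay below all YAP1-S127A libraries and overlapped with MX, where replicate 1 was low. MVK had -0.30 ± 0.14 SE with an edgeR adjusted p of 0.248 in YAP1 against MX. Without MX replicate 1 it passed as lower (edgeR adjusted p = 0.0242), the 1 alternative of 20 in which it was called. Over the 20 its log2 fold change ran from -0.45 to -0.17. The median of tested genes of chromosome 12, where MVK lies, was -0.14 in that comparison.

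HMGCS1, which makes HMG-CoA at the head of the pathway, was nearly level. HMGCS1 averaged 29.4 ± 3.08 CPM in YAP1-S127A, 31.5 ± 0.344 CPM in YAP1 and 28.9 ± 3.96 CPM in MX (SD, n = 3 each). Its 95% interval in YAP1-S127A against MX ran from -0.25 to 0.29 on the log2 scale. PMVK, phosphomevalonate kinase, lies between MVK and MVD in the pathway. PMVK averaged 51.1 ± 5.75 CPM in YAP1-S127A, 46.3 ± 3.40 CPM in YAP1 and 45.0 ± 6.32 CPM in MX, and its groups overlapped. Its interval in YAP1-S127A against MX ran from -0.08 to 0.45. The median log2 fold change of the 6 enzymes was 0.27 in YAP1-S127A against MX, 0.23 in YAP1 against MX and 0.14 in YAP1-S127A against YAP1, with 5 of 6 positive in each under TMM and 3, 4 and 2 under total-count scaling.

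Of the 11 enzymes that turn farnesyl pyrophosphate into cholesterol, LSS rose in both construct groups and the other 10 did not pass the test in any comparison. LSS, lanosterol synthase (chromosome 21, positions 46188141 to 46228824, minus strand), closes the rings of the sterol skeleton. LSS had 43.9, 45.7 and 51.7 CPM in the YAP1-S127A libraries, 41.3, 48.4 and 55.0 CPM in the YAP1 libraries and 29.0, 31.9 and 34.2 CPM in the MX libraries. No construct library fell within the MX range, while YAP1-S127A and YAP1 overlapped. It was 1.49-fold higher in YAP1-S127A than in MX (log2 fold change 0.57 ± 0.13 SE, edgeR adjusted p = 0.00333) and 1.52-fold higher in YAP1 than in MX (log2 fold change 0.61 ± 0.13 SE, edgeR adjusted p = 0.00476). Without YAP1 replicate 3 the call in YAP1 was lost (edgeR adjusted p = 0.0527), and with the mitochondrial share as a covariate the call in YAP1-S127A was lost (edgeR adjusted p = 0.0938) at a log2 fold change of 0.52, close to that without it. The median of the tested genes of chromosome 21, where LSS lies, was 0.11 in YAP1-S127A against MX and 0.12 in YAP1 against MX on the log2 scale, and LSS stayed called in both once such chromosome-wide shifts were removed.

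FDFT1, squalene synthase, commits farnesyl pyrophosphate to sterols. FDFT1 had 63.7, 64.8 and 67.8 CPM in the YAP1-S127A libraries, 83.3, 77.9 and 72.7 CPM in the YAP1 libraries and 63.8, 65.1 and 71.3 CPM in the MX libraries. Each YAP1 library was above all YAP1-S127A and MX libraries, by a small margin. The log2 fold change was -0.25 ± 0.11 SE with an edgeR adjusted p of 0.344 in YAP1-S127A against YAP1, and 0.22 ± 0.11 SE with an edgeR adjusted p of 0.257 in YAP1 against MX. SQLE, squalene epoxidase, a rate-limiting step, averaged 86.8 ± 14.8 CPM in YAP1-S127A, 89.3 ± 13.4 CPM in YAP1 and 75.6 ± 2.91 CPM in MX, with overlapping groups. CYP51A1 was measured at 2.59, 2.72 and 4.15 CPM in the YAP1-S127A libraries, 2.64, 4.07 and 4.92 CPM in the YAP1 libraries and 2.67, 2.60 and 1.99 CPM in the MX libraries. YAP1 replicates 2 and 3 and YAP1-S127A replicate 3 stood above the rest, and the others were level with MX. Its log2 fold change in YAP1 against MX, 0.69, was the largest of the 30 there, but its SE was 0.27 and the edgeR adjusted p 0.147, so the difference did not pass the test. Its coefficient of variation within a group was 27.3% in YAP1-S127A, 29.7% in YAP1 and 15.5% in MX.

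SC5D and TM7SF2 came close in YAP1-S127A against MX, in opposite directions. SC5D had 38.3, 34.4 and 44.0 CPM in the YAP1-S127A libraries, 27.4, 39.4 and 36.0 CPM in the YAP1 libraries and 30.4, 32.4 and 25.1 CPM in the MX libraries. All YAP1-S127A libraries of SC5D, a sterol desaturase, lay above all MX libraries, and YAP1 overlapped both. Its value in YAP1-S127A against MX was 0.41 ± 0.15 SE with an edgeR adjusted p of 0.0563. It passed without MX replicate 2 (edgeR adjusted p = 0.0413), YAP1 replicate 1 (0.0424) or YAP1-S127A replicate 2 (0.0474). In all, SC5D passed in 6 of the 20 alternatives, and over the 20 its log2 fold change ran from 0.13 to 0.49. TM7SF2, a sterol reductase, had 24.3, 30.3 and 30.1 CPM in the YAP1-S127A libraries, 32.9, 36.2 and 33.1 CPM in the YAP1 libraries and 28.4, 43.2 and 39.9 CPM in the MX libraries. MX replicate 1 lay among the YAP1-S127A libraries and the other MX libraries were above them. TM7SF2 had -0.39 ± 0.15 SE with an edgeR adjusted p of 0.0714, and without MX replicate 1 it passed as lower (edgeR adjusted p = 0.00236).

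The remaining sterol enzymes overlapped between YAP1-S127A, YAP1 and MX. MSMO1 averaged 78.5 ± 16.5 CPM in YAP1-S127A, 76.6 ± 11.8 CPM in YAP1 and 66.5 ± 5.18 CPM in MX (SD, n = 3 each), where this gene encodes the C-4 methylsterol oxidase. NSDHL averaged 34.2 ± 3.91 CPM in YAP1-S127A, 40.0 ± 4.30 CPM in YAP1 and 40.6 ± 5.38 CPM in MX, and encodes a dehydrogenase that removes the same methyl groups. HSD17B7 averaged 16.7 ± 1.68 CPM in YAP1-S127A, 15.5 ± 1.83 CPM in YAP1 and 16.7 ± 0.539 CPM in MX; its product is the matching keto reductase. EBP, the sterol isomerase, averaged 61.5 ± 12.1 CPM in YAP1-S127A, 53.6 ± 5.11 CPM in YAP1 and 59.6 ± 15.0 CPM in MX. DHCR7 makes cholesterol from its immediate precursor. DHCR7 averaged 119 ± 21.0 CPM in YAP1-S127A, 121 ± 18.0 CPM in YAP1 and 105 ± 22.2 CPM in MX. For these 5 enzymes the log2 fold changes ran from -0.25 for NSDHL to 0.24 for MSMO1 in YAP1-S127A against MX. The median over all 11 was 0.18 in that comparison, 0.20 in YAP1 against MX and -0.03 in YAP1-S127A against YAP1, with 8, 7 and 4 of 11 positive under TMM and 3, 7 and 1 under total-count scaling.

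Among the 5 regulators and sterol carriers, INSIG1 rose in YAP1 against MX and the other 4 did not pass. INSIG1 (chromosome 7, positions 155297776 to 155310235, plus strand) retains SREBP in the endoplasmic reticulum and is itself a known SREBP target. INSIG1 stood at 40.1, 41.1 and 58.2 CPM in the YAP1-S127A libraries, 47.4, 61.6 and 50.5 CPM in the YAP1 libraries and 34.9, 38.6 and 32.9 CPM in the MX libraries. Every YAP1 and YAP1-S127A library was above every MX library, and YAP1-S127A replicates 1 and 2 were only slightly so. It was 1.50-fold higher in YAP1 than in MX (log2 fold change 0.58 ± 0.14 SE, edgeR adjusted p = 0.0171), and in YAP1-S127A against MX it had 0.40 ± 0.15 SE with an edgeR adjusted p of 0.0658. The call in YAP1 was lost without MX replicate 3 (edgeR adjusted p = 0.0847) or YAP1 replicate 2 (edgeR adjusted p = 0.127), and INSIG1 passed in YAP1-S127A without YAP1-S127A replicate 1 (edgeR adjusted p = 0.0458). The difference between the constructs was -0.19 ± 0.14 SE with an edgeR adjusted p of 0.656.

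SREBF2 had 89.8, 86.3 and 112 CPM in the YAP1-S127A libraries, 92.6, 113 and 110.2 CPM in the YAP1 libraries and 77.8, 88.6 and 90.4 CPM in the MX libraries. All YAP1 libraries exceeded all MX libraries, and YAP1-S127A overlapped both; the value in YAP1 against MX was 0.30 ± 0.13 SE with an edgeR adjusted p of 0.182. SREBF1 had 66.5, 75.6 and 83.2 CPM in the YAP1-S127A libraries, 77.4, 96.7 and 88.1 CPM in the YAP1 libraries and 74.8, 111 and 98.0 CPM in the MX libraries. Its groups overlapped, with MX replicate 1 lower than the other MX libraries. SREBF1 had -0.33 ± 0.14 SE with an edgeR adjusted p of 0.116 in YAP1-S127A against MX, and without MX replicate 1 it passed as lower (edgeR adjusted p = 0.00633). INSIG2, the second INSIG protein, averaged 26.6 ± 3.82 CPM in YAP1-S127A, 24.2 ± 2.76 CPM in YAP1 and 25.9 ± 5.30 CPM in MX (SD, n = 3 each). STARD4 averaged 23.5 ± 3.82 CPM in YAP1-S127A, 27.1 ± 3.09 CPM in YAP1 and 24.4 ± 4.19 CPM in MX, and carries sterol between membranes. Both overlapped across the groups, with 95% intervals in YAP1-S127A against MX of -0.28 to 0.37 and -0.38 to 0.26 on the log2 scale.

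All 8 fatty acid enzymes had a negative log2 fold change in YAP1-S127A against MX, under TMM and RLE scaling, where 49.5% of all tested genes were positive under TMM. Of the 8, ACLY, SCD and ELOVL6 passed the test as lower, and no direction is claimed for the others. ACLY, FASN and ACACA all lie on chromosome 17, where the median of tested genes was -0.10 in that comparison. FASN and ACACA had -0.09 and -0.05. FADS1 and FADS2 overlap each other on chromosome 11, with a median of -0.08. The 8 signs are therefore not independent of each other. Under some alternatives FASN, ACACA and ACSS2 were slightly positive, with highest log2 fold changes of 0.0072, 0.043 and 0.0045. ACLY (chromosome 17, positions 41866908 to 41930542, minus strand) feeds both pathways with acetyl-CoA. ACLY had 461, 425 and 393 CPM in the YAP1-S127A libraries, 648, 520.3 and 599.8 CPM in the YAP1 libraries and 586, 508 and 588 CPM in the MX libraries. The YAP1-S127A libraries lay below every YAP1 and MX library, which overlapped. It was 0.760-fold the MX level in YAP1-S127A (log2 fold change -0.40 ± 0.13 SE, edgeR adjusted p = 0.0323). In YAP1 against MX it had 0.07 ± 0.12 SE with an edgeR adjusted p of 0.814. The call in YAP1-S127A was lost without MX replicate 3 (edgeR adjusted p = 0.106), YAP1-S127A replicate 2 (0.0811) or YAP1-S127A replicate 3 (0.142), and with the mitochondrial share as a covariate (0.236), where the log2 fold change was still -0.40. The median of tested genes of chromosome 17, where ACLY lies, was -0.10 in YAP1-S127A against MX, and with chromosome-wide shifts removed ACLY had an edgeR adjusted p of 0.0977.

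SCD, stearoyl-CoA desaturase (chromosome 10, positions 100347124 to 100364834, plus strand), puts the first double bond into saturated fatty acids. SCD measured 90.2, 92.0 and 129 CPM in the YAP1-S127A libraries, 121, 163 and 121 CPM in the YAP1 libraries and 161, 159 and 124 CPM in the MX libraries. YAP1-S127A replicates 1 and 2 lay below all other libraries, while YAP1-S127A replicate 3 was within the range of YAP1 and MX. SCD fell in YAP1-S127A against MX (log2 fold change -0.51 ± 0.16 SE, edgeR adjusted p = 0.0272), and in YAP1 against MX it had -0.13 ± 0.16 SE with an edgeR adjusted p of 0.711. The call was lost without MX replicate 1 (edgeR adjusted p = 0.103), MX replicate 2 (0.0765), YAP1-S127A replicate 1 (0.117) or YAP1-S127A replicate 2 (0.108). With the mitochondrial covariate it was also lost (edgeR adjusted p = 0.116), with a log2 fold change further from 0, -0.63.

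ELOVL6, the elongase of saturated chains (chromosome 4, positions 110045846 to 110199199, minus strand), was the one fatty acid enzyme called in both construct groups. ELOVL6 stood at 24.6, 23.1 and 28.5 CPM in the YAP1-S127A libraries, 24.1, 23.9 and 25.2 CPM in the YAP1 libraries and 33.9, 32.6 and 31.3 CPM in the MX libraries. Every construct library was below every MX library, and the constructs overlapped. ELOVL6 was 0.779-fold the MX level in YAP1-S127A (log2 fold change -0.36 ± 0.12 SE, edgeR adjusted p = 0.0421) and 0.748-fold in YAP1 (log2 fold change -0.42 ± 0.12 SE, edgeR adjusted p = 0.0374). Both calls were close to the threshold, and each was lost in 10 of 20 alternatives, where the edgeR adjusted p reached 0.157 for YAP1-S127A and 0.141 for YAP1. Leaving out any 1 of the 6 YAP1 or MX libraries, or YAP1-S127A replicate 1, ended the call in YAP1, at adjusted p between 0.0514 and 0.141. For YAP1-S127A the same held for each MX library, YAP1 replicates 2 and 3 and YAP1-S127A replicates 1 and 2, at adjusted p between 0.0593 and 0.157, and the mitochondrial covariate gave 0.134 at a log2 fold change of -0.46. The log2 fold change stayed between -0.64 and -0.30 for YAP1-S127A and between -0.49 and -0.39 for YAP1.

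FASN, fatty acid synthase, builds palmitate. FASN had 299, 318 and 315 CPM in the YAP1-S127A libraries, 379, 359 and 387 CPM in the YAP1 libraries and 310.1, 312 and 369.7 CPM in the MX libraries. Each YAP1-S127A library was below each YAP1 library, and MX overlapped with both. The log2 fold change was -0.27 ± 0.11 SE with an edgeR adjusted p of 0.323 in YAP1-S127A against YAP1, and -0.09 ± 0.11 SE with an edgeR adjusted p of 0.642 in YAP1-S127A against MX. ACACA, acetyl-CoA carboxylase, which makes malonyl-CoA, averaged 65.5 ± 1.67 CPM in YAP1-S127A, 74.1 ± 10.8 CPM in YAP1 and 67.7 ± 9.87 CPM in MX (SD, n = 3 each). ACSS2, which makes acetyl-CoA from acetate, averaged 46.4 ± 5.49 CPM in YAP1-S127A, 47.1 ± 1.31 CPM in YAP1 and 52.7 ± 1.75 CPM in MX. All YAP1 libraries of ACSS2 were below all MX libraries, but the test was not passed (log2 fold change -0.16 ± 0.11 SE, edgeR adjusted p = 0.472). The desaturases FADS1 and FADS2 make polyunsaturated fatty acids. FADS1 averaged 103 ± 11.6 CPM in YAP1-S127A, 109 ± 15.9 CPM in YAP1 and 113 ± 4.04 CPM in MX. FADS2 averaged 67.2 ± 14.1 CPM in YAP1-S127A, 70.8 ± 11.3 CPM in YAP1 and 74.8 ± 12.7 CPM in MX, with overlapping groups for both genes. Over the 8 fatty acid enzymes the median log2 fold change was -0.17 in YAP1-S127A against MX, -0.06 in YAP1 against MX, where 3 of 8 were positive, and -0.13 in YAP1-S127A against YAP1, where 1 was.

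**Figure D3:**
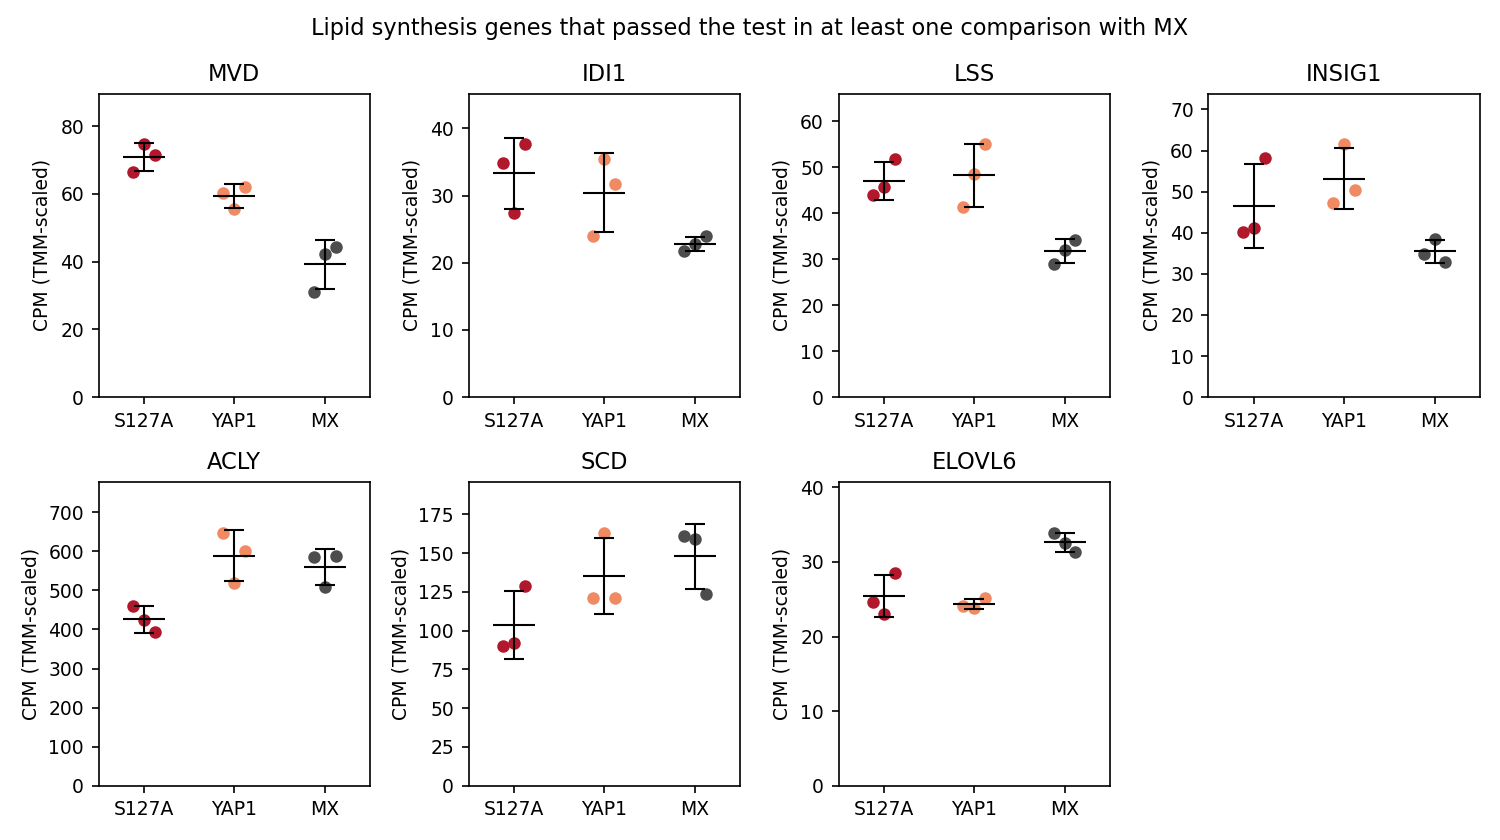
CPM after TMM scaling (axis from 0) of the 7 genes that passed the test in YAP1-S127A or YAP1 against MX; each point is 1 library, and bars give the mean and SD of 3. MVD, IDI1, LSS and INSIG1 are above MX in both construct groups, ELOVL6 is below MX in both, ACLY is below in YAP1-S127A, and 1 YAP1-S127A library of SCD lies among the MX libraries.

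Summed by role, in CPM per kb, the fatty acid enzymes reached 167 ± 1.79 in YAP1-S127A, 213 ± 7.60 in YAP1 and 208 ± 9.26 in MX (SD, n = 3 each). The YAP1-S127A libraries lay below all others and their spread was small. ACLY made up 48.8% of that sum in YAP1-S127A, 53.0% in YAP1 and 51.7% in MX. In the same groups ACLY stood at 81.7, 113 and 107 CPM per kb and SCD at 19.3, 25.2 and 27.6. Both were called lower in YAP1-S127A against MX. The lower sum thus largely repeats these calls and does not show a fall of every enzyme. The mevalonate enzymes summed to 88.2 ± 4.48 CPM per kb in YAP1-S127A, 80.8 ± 5.01 in YAP1 and 70.9 ± 8.45 in MX. YAP1-S127A was above all MX libraries there, and YAP1 overlapped with MX. The sterol enzymes summed to 157 ± 21.5, 161 ± 15.7 and 149 ± 18.0 CPM per kb in YAP1-S127A, YAP1 and MX, and the regulators to 45.6 ± 5.81, 50.3 ± 4.79 and 43.7 ± 3.49, both with overlapping groups. These sums carry no test.

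**Figure D4:**
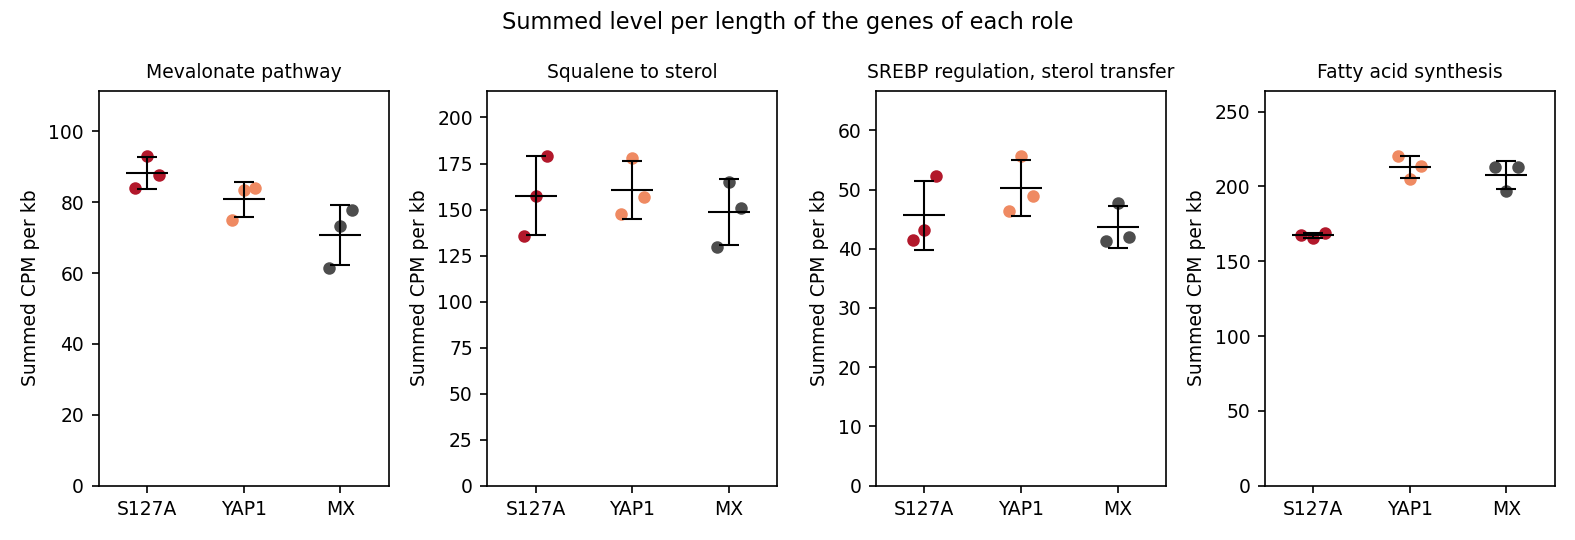
Summed level per length (CPM per kb, axes from 0) of the genes of each role; each point is 1 library, with the mean and SD of 3 as bars, for YAP1-S127A, YAP1 and MX. For fatty acid synthesis the YAP1-S127A libraries sit below all others, and for the mevalonate pathway they sit above all MX libraries.

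YAP1-S127A against YAP1 is the test of one construct against the other. ACLY came nearest to a call there (log2 fold change -0.47 ± 0.13 SE, edgeR adjusted p = 0.0616), with all 3 YAP1-S127A libraries below all YAP1 libraries. It passed without MX replicate 1 (edgeR adjusted p = 0.0210) or MX replicate 2 (0.0443), libraries that enter only through the shared estimate of spread, and with DESeq2 (0.00500). In all, ACLY passed in 7 of the 20 alternatives. Over these fits of edgeR, DESeq2 and limma-voom the adjusted p reached 0.294, and the log2 fold change ran from -0.68 to -0.39. SCD, FASN and FDFT1 also had an unadjusted p under 0.05, at log2 fold changes of -0.38, -0.27 and -0.25 and edgeR adjusted p of 0.314, 0.323 and 0.344. The 95% interval of the difference ran from -0.01 to 0.53 for MVD, from -0.30 to 0.23 for LSS and from -0.19 to 0.31 for ELOVL6. A call in one construct group and not in the other is not shown to differ between them for IDI1, INSIG1, ACLY or SCD.

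By group mean, 12 of the 30 genes were highest in YAP1, 5 were lowest in YAP1, 6 were highest in YAP1-S127A and lowest in MX, and 7 were lowest in YAP1-S127A and highest in MX. The 6 were MVD, IDI1, FDPS, PMVK, MSMO1 and SC5D, all of the cholesterol branch. The 7 were SCD, ACSS2, FADS1 and FADS2 of fatty acid synthesis, NSDHL, TM7SF2 and SREBF1. These orders rest on differences between the constructs that edgeR did not call, such as log2 fold changes of 0.02 for FDPS and 0.04 for MSMO1. In YAP1-S127A against YAP1, total-count scaling left 2 of 6 mevalonate and 1 of 11 sterol enzymes positive, where TMM gave 5 and 4. Orders over all tested genes were not counted, so no pattern by branch is read from them. The median coefficient of variation within a group was 11.6% in YAP1-S127A, 11.2% in YAP1 and 13.5% in MX. YAP1-S127A replicate 1, with the largest mitochondrial share, held the lowest value of 8 genes and the highest of 0. MX replicate 1 held the lowest value of 9 genes, MVD and LSS among them, and YAP1 replicate 2 the highest of 6. MVD and LSS stayed called in both construct groups without MX replicate 1.

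**Figure D5:**
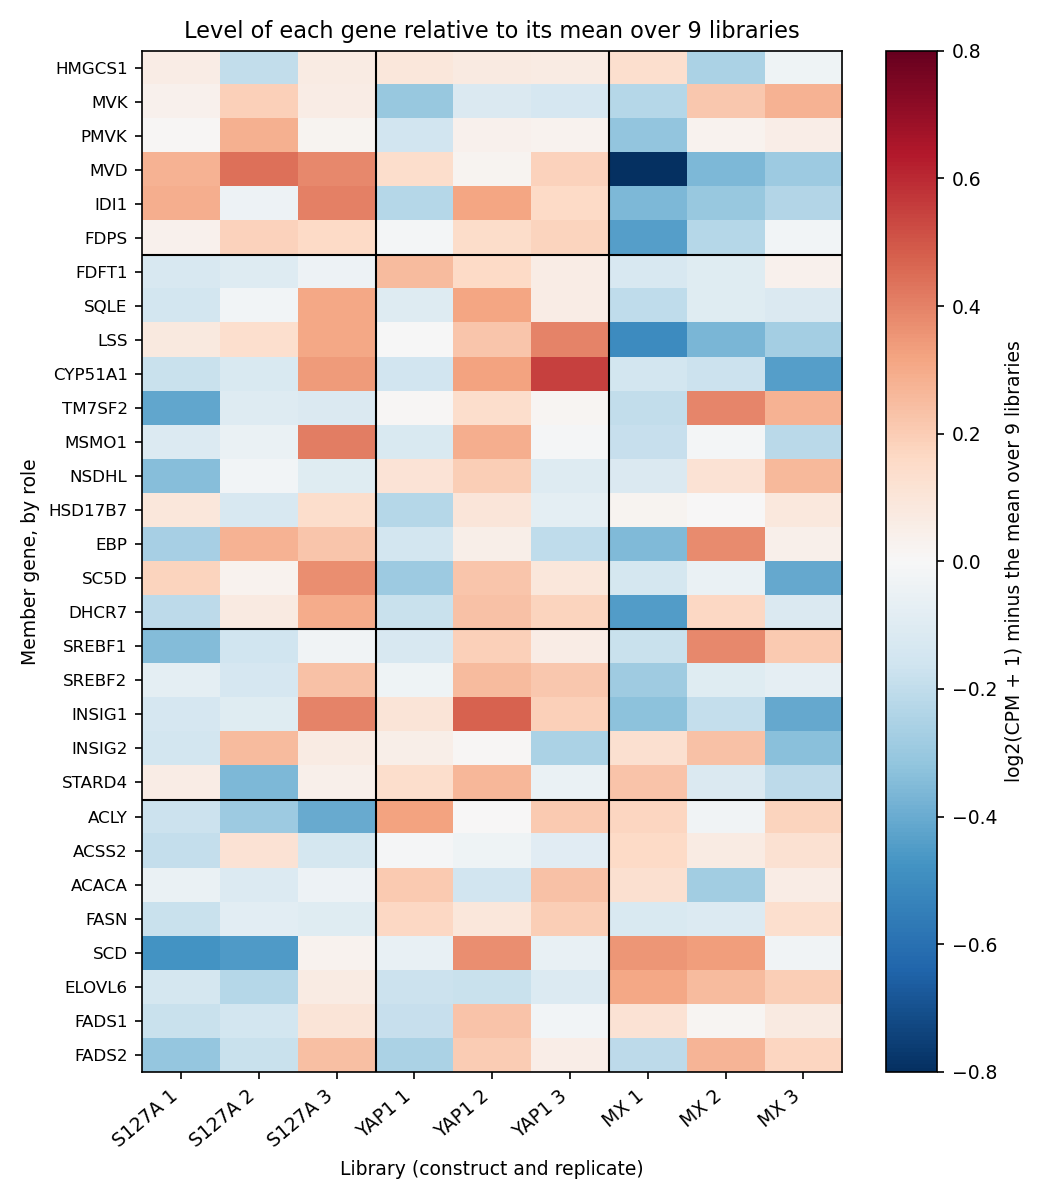
Level of each of the 30 genes in each library as log2(CPM + 1) minus the gene's mean over the 9 libraries; red is above that mean and blue below. MVD and LSS are blue in all MX libraries, ACLY is blue in all YAP1-S127A libraries, and MX replicate 1 is blue for much of the sterol pathway.

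Some members share genomic sequence with other genes, and the strand setting of the counting is not given, although the libraries were stranded. VPS51 overlaps TM7SF2 on the same strand and had 295% of its counts. MMAB overlaps MVK with 135% of its counts, RAI1 overlaps SREBF1 with 55.9%, and GGT7 overlaps ACSS2 with 45.8%. FADS1 and FADS2 overlap each other, and FEN1 overlaps FADS2. STARD4-AS1 overlaps STARD4 with 13.5% of its counts. Copies elsewhere were few in counts: HSD17B7P2 had 6.39% of those of HSD17B7 and CYP51A1P2 had 5.70% of those of CYP51A1. Values of these members are uncertain to that extent; the 7 called genes are not among them.

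Neighbouring parts of lipid metabolism were read through 7 further lists, of which 102 of 108 genes were tested. The largest list, 25 other tested genes of fatty acid synthesis and elongation, held 5 genes called higher and 3 lower in YAP1-S127A against MX, or 20% and 12%, beside 9.53% and 8.84% of all tested genes. Calls in both directions thus occurred among fatty acid genes. HACD1, a dehydratase of chain elongation, had 41.9, 39.7 and 51.9 CPM in the YAP1-S127A libraries, 24.0, 34.3 and 29.7 CPM in the YAP1 libraries and 17.8, 23.4 and 20.7 CPM in the MX libraries. The 3 groups did not overlap; it rose in YAP1-S127A against MX (log2 fold change 1.11 ± 0.15 SE, edgeR adjusted p = 2.71e-05), in YAP1 against MX (log2 fold change 0.51 ± 0.15 SE, edgeR adjusted p = 0.0447) and in YAP1-S127A against YAP1 (log2 fold change 0.60 ± 0.15 SE, edgeR adjusted p = 0.0395). ACACB, the acetyl-CoA carboxylase linked to control of fatty acid oxidation, fell in YAP1-S127A (log2 fold change -1.11 ± 0.20 SE, edgeR adjusted p = 0.000507) and in YAP1 (log2 fold change -0.65 ± 0.19 SE, edgeR adjusted p = 0.0429), each against MX. FADS3, a relative of FADS1 and FADS2, rose in YAP1-S127A against MX (log2 fold change 0.85 ± 0.15 SE, edgeR adjusted p = 0.000641). The HACD1 call in YAP1 against MX was lost without MX replicate 1 or 3, YAP1 replicate 2 or 3 or YAP1-S127A replicate 1, at edgeR adjusted p from 0.0577 to 0.246. Its call between the constructs was lost on leaving out MX replicate 3, replicate 1 or 3 of YAP1, or replicate 1 or 3 of YAP1-S127A, at 0.0594 to 0.299. The ACACB call in YAP1 was lost without any 1 YAP1 library, MX replicate 1 or 3 or YAP1-S127A replicate 1 or 3, at 0.0509 to 0.163. In all, this ACACB call was lost in 11 of 20 alternatives and each of these HACD1 calls in 9. With chromosome-wide shifts removed, the edgeR adjusted p was 0.121 for this ACACB call and 0.0705 for HACD1 between the constructs. Total-count scaling gave HACD1 an edgeR adjusted p of 0.107 in YAP1 against MX and 0.150 between the constructs.

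Of 16 tested lipid droplet genes, G0S2, an inhibitor of triglyceride lipase, rose in YAP1-S127A (log2 fold change 0.83 ± 0.12 SE, edgeR adjusted p = 7.41e-05) and in YAP1 (log2 fold change 0.80 ± 0.12 SE, edgeR adjusted p = 0.000321), each against MX. DGAT2, which makes triglyceride, fell in YAP1-S127A (log2 fold change -1.04 ± 0.21 SE, edgeR adjusted p = 0.00143) and in YAP1 (log2 fold change -1.11 ± 0.21 SE, edgeR adjusted p = 0.00181) against MX. MGLL, monoacylglycerol lipase, rose in YAP1-S127A (log2 fold change 0.53 ± 0.11 SE, edgeR adjusted p = 0.00239). In the same comparison 1 gene fell among 8 tested LXR and efflux genes, NR1H3, the oxysterol receptor LXR alpha (log2 fold change -0.56 ± 0.13 SE, edgeR adjusted p = 0.00376), and 1 among 11 of sterol transport, NPC1, which exports lysosomal cholesterol (log2 fold change -0.46 ± 0.13 SE, edgeR adjusted p = 0.0143). NUS1, of dolichol synthesis, rose among 13 isoprenoid genes (log2 fold change 0.36 ± 0.12 SE, edgeR adjusted p = 0.0411). Of 17 beta-oxidation genes, ETFDH rose (log2 fold change 0.55 ± 0.15 SE, edgeR adjusted p = 0.0162) and DECR1 fell (log2 fold change -0.51 ± 0.13 SE, edgeR adjusted p = 0.00787). For the 12 sterol sensing genes, which escort and process SREBP, edgeR, DESeq2 and limma-voom called 0 in each comparison; the edgeR test gave an unadjusted p under 0.05 for 2 in YAP1-S127A against MX, 1 in YAP1 against MX and 0 in YAP1-S127A against YAP1. Over all 102 genes the calls were 9 higher and 7 lower in YAP1-S127A against MX, or 8.82% and 6.86%, beside 9.53% and 8.84% of all tested genes. They were 2 and 2 in YAP1 against MX, or 1.96% each way, beside 3.23% and 3.58%. Both are near or under the background. The calls were 1 and 0 in YAP1-S127A against YAP1, where the 1 was HACD1. With the mitochondrial share as a covariate, the log2 fold change in YAP1-S127A against MX was 0.69 for FADS3 (edgeR adjusted p = 0.0514), 0.50 for MGLL (0.0710), -0.43 for NR1H3 (0.175), -0.52 for NPC1 (0.101), 0.33 for NUS1 (0.311), 0.48 for ETFDH (0.210) and -0.28 for DECR1 (0.390), so these calls were lost. HACD1, ACACB, G0S2 and DGAT2 stayed called in that comparison, while in YAP1 against MX the covariate gave edgeR adjusted p of 0.0732 for HACD1 and 0.0595 for ACACB, and in YAP1-S127A against YAP1 it gave 0.312 for HACD1. Under total-count scaling the value was 0.25 for MGLL (edgeR adjusted p = 0.234), 0.09 for NUS1 (0.706) and 0.28 for ETFDH (0.292). Leaving out MX replicate 3 or YAP1-S127A replicate 1 ended the calls of NPC1, at edgeR adjusted p from 0.0575 to 0.0638, and of ETFDH, at 0.0548 to 0.0702. That of NUS1 was lost in 11 of 20 alternatives, among them leaving out MX replicate 2 or 3, YAP1 replicate 3 or any 1 YAP1-S127A library, at 0.0593 to 0.178.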

How the data were processed

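The deposited values are whole-number read counts per gene for 9 libraries, with no normalization by the authors visible in the table. The tools named are Salmon 1.9.0, Cufflinks and HISAT2, and the build GRCm39, per the submitters' processing notes, while GEO's labels name mouse as the organism. The table's gene identifiers are human Ensembl genes, so that build does not describe it, and for the human build, the strand setting and the program that counted, the sources used here give no answer. Counts of overlapping genes or close copies may be split in ways that cannot be checked, and sequences of these genes were not used here.

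Genes were kept by edgeR's filterByExpr, leaving 15492 of 58735. With TMM scaling, 1 model of all 9 libraries with a term for group alone was fitted in edgeR 4.0.16 (R 4.3.3), using robust quasi-likelihood dispersions. Two-sided p-values were adjusted by Benjamini-Hochberg over every gene tested, and a call is an adjusted p under 0.05. The code was first tested on simulated data. CPM values carry the SD over 3 libraries, and 3 counts correspond to 0.121 to 0.190 CPM, a floor that, like any counting interval, leaves out other error. Levels per length use the deposited gene length.

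Alternatives were RLE size factors, total counts alone, no filter, a stricter filter of 1 CPM, DESeq2 1.42.0, limma-voom (limma 3.58.1), only the compared groups, no mitochondrial genes, the mitochondrial share as covariate, a replicate block, removal of chromosome-wide shifts (chromosomes with at least 50 genes), and leaving out each library. The members and all lists were chosen with earlier results of these data known. Named genes are all 30 members, up to 3 called genes with the smallest p per other list and comparison, and YAP1. ANKRD1, AMOTL2 and CYR61, also in that rule as YAP targets, are given here only: their log2 fold changes in YAP1-S127A against MX were 2.84, 1.35 and 1.34. A list of further sterol genes is not reported here.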

Additional observations from a re-analysis of the deposited data

How the results depend on the processing

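Of 200 values for called genes among the 30, under 20 alternatives, 0 changed sign. These genes were picked by their calls in the same libraries, which made a change of sign unlikely. The count is therefore no independent evidence for their direction. Of 1562 values called neither in the reported test nor in the alternative, 92 changed sign, spread over 37 of 80 gene and comparison pairs, so no direction is claimed for them. In YAP1-S127A against MX, total-count scaling gave 4447 genes called, against 2845 as reported, with 1 of the 30 higher and 9 lower; LSS (edgeR adjusted p = 0.151) and IDI1 (0.234) were among those lost. The mitochondrial covariate gave 1405 genes, with 1 of the 30 higher and 0 lower; the same fit gave an unadjusted p under 0.05 for 5 of the 30, while DESeq2 and limma-voom without the covariate each called 7. No filter and the removal of chromosome-wide shifts each gave 5 higher, beside 3003 of 31983 and 2803 of 15492 tested genes called in either direction. In YAP1 against MX, total-count scaling, no filter, and fitting only the compared groups each gave 0 lower, where edgeR as reported gave 1, ELOVL6, at adjusted p of 0.0524, 0.0647 and 0.0525. In YAP1-S127A against YAP1, where 305 genes and 0 of the 30 were called as reported, the counts were 614 genes and 2 lower with total counts, 520 and 1 with no filter, 475 and 1 with DESeq2 and 477 and 1 with only the compared groups. Deviations of same-numbered libraries correlated at -0.178 to 0.204, and those of differently numbered libraries of other groups at -0.254 to 0.207. These values cannot decide whether the replicate numbers mark a shared culture, and the reported fit has a term for group alone. With the replicate block the calls among the 30 were 6 higher and 5 lower in YAP1-S127A against MX, with 3426 genes called in all. They were 4 higher and 1 lower in YAP1 against MX, with 1429 genes called in all. In YAP1-S127A against YAP1 they were 1 lower, with 472 genes called in all. The reported fit called 2845, 1054 and 305 genes in these comparisons. Leaving out each library gave 1827 to 3063 genes called in YAP1-S127A against MX, with 2 to 4 of the 30 higher and 0 to 3 lower; 598 to 1413 in YAP1 against MX, with 2 to 4 higher and 0 to 1 lower; and 125 to 460 in YAP1-S127A against YAP1, with 0 to 1 lower. The lowest of these came without YAP1-S127A replicate 3, YAP1 replicate 3 and YAP1-S127A replicate 3. Unless the construction of the alternative shows it, the cause was not tested. Among the 1800 single values of the 30 genes, 39 lost and 38 gained a call. Without length, ACACA and PMVK moved most in the order of levels in MX. CYP51A1, with the fewest counts of the 30, had the widest intervals; counting error and spread between libraries were not separated.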
